A study of Mus musculus with 16 samples.

Results

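Ventricles of 8 Trbp-cKO mice, 4 after transverse aortic constriction (TAC) and 4 after sham surgery, were compared by RNA sequencing to see which genes respond to pressure overload in hearts whose cardiomyocytes have lost Trbp. They are 8 of the 16 hearts of the series, taken by the labels for Trbp-cKO and surgery, and the remaining 8 are control TAC and control sham hearts, 4 of each. Every mouse, controls included, carried the same alleles, aMHC-MerCreMer;Trbp-Flox/Flox, in which a cardiomyocyte promoter drives a Cre recombinase that enters the nucleus after tamoxifen. Trbp-cKO mice received tamoxifen at 30 mg/kg for 5 days from 4 weeks of age and controls received corn oil, so both arms of the comparison described here had the drug, the active Cre and the deletion, and they differed by the surgery. The aorta was constricted, or the chest opened without constriction, at 8 weeks of age, and hearts were collected 8 weeks later from males of 16 weeks. Mice that reached severe heart failure earlier were killed before that time point, and whether hearts of such mice were sequenced is not stated. Each library held the ventricle of 1 mouse. Since bulk tissue was sequenced, fewer cells of a type and less RNA per cell cannot be told apart in any value below.

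TAC narrows the aortic arch, and the left ventricle must then eject blood against a raised pressure. The response of the heart to such a load is known from many models: cardiomyocytes enlarge, release natriuretic peptides and take up genes of the fetal heart, the burning of fatty acids declines, and fibroblasts become active and lay down collagen. Trbp, the product of Tarbp2, is a protein that binds double-stranded RNA and works with Dicer in the making of microRNAs, which restrain many transcripts of the heart muscle.

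Counts of the 8 hearts summed to between 45166994 and 68274222. Tarbp2 (ENSMUSG00000023051, chr15:102518192-102523676 in GRCm38, the build of all coordinates given here) was at 9.09, 8.39, 11.4 and 9.21 CPM in the sham hearts and at 7.14, 8.57, 9.05 and 9.74 CPM in the TAC hearts, where CPM is the usual scaled count, taken relative to the TMM-adjusted total of the library, against means of 32.2 CPM in control sham and 27 CPM in control TAC hearts. The remaining transcript was thus low in all 8 Trbp-cKO hearts, and no difference between TAC and sham passed the test (log2 fold change -0.14 ± 0.13, adjusted p = 0.595). Cardiomyocyte markers were abundant in every heart. Some hearts stood apart from their group. A clock score, the mean log2 CPM of Per1, Per2, Per3, Nr1d1, Nr1d2, Dbp, Tef, Hlf, Ciart and Bhlhe41 minus that of Arntl, Npas2, Clock and Nfil3, was 3.82, 3.54, 3.54 and 3.61 in the sham hearts and 3.11, 3.20, 0.685 and 1.66 in the TAC hearts, so that TAC hearts 3 and 4 differed from TAC hearts 1 and 2. TAC heart 4 held the highest level of most matrix genes and sham heart 1 that of several interferon-induced genes.

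TAC changed 1112 of the 19955 genes tested in Trbp-cKO hearts (5.57%), of which 645 were higher (3.23%) and 467 lower (2.34%). A gene was called when its adjusted p was 0.05 or less in edgeR's quasi-likelihood test and its absolute log2 fold change was at least 0.8. Of the higher genes 156 had a log2 fold change of 2 or more, and of the lower genes 94 had one of -2 or less. In 589 of the 645 higher and 431 of the 467 lower genes no TAC heart overlapped a sham heart, against 9.05% and 8.14% of all tested genes whose groups did not overlap in these directions. Protein-coding genes made up 89.6% of the higher and 75.4% of the lower calls. Without TAC hearts 3 and 4 the counts were 460 higher and 238 lower, and without TAC heart 4 and sham heart 1 they were 477 and 326. With the clock score as a covariate they were 361 and 157. The score was lower in every TAC heart than in every sham heart, so that fit cannot fully separate the clock from the surgery. The part of the clock difference in these calls was not tested beyond that fit. Reads may not be separable where exons of annotated genes overlap, which for genes named below and not marked there was the case for over 10% of the exonic bases of Myh7, Kcnj3, Adamts8, Tgfb3, Angpt1, Dbp and Penk.

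**Figure D1:**
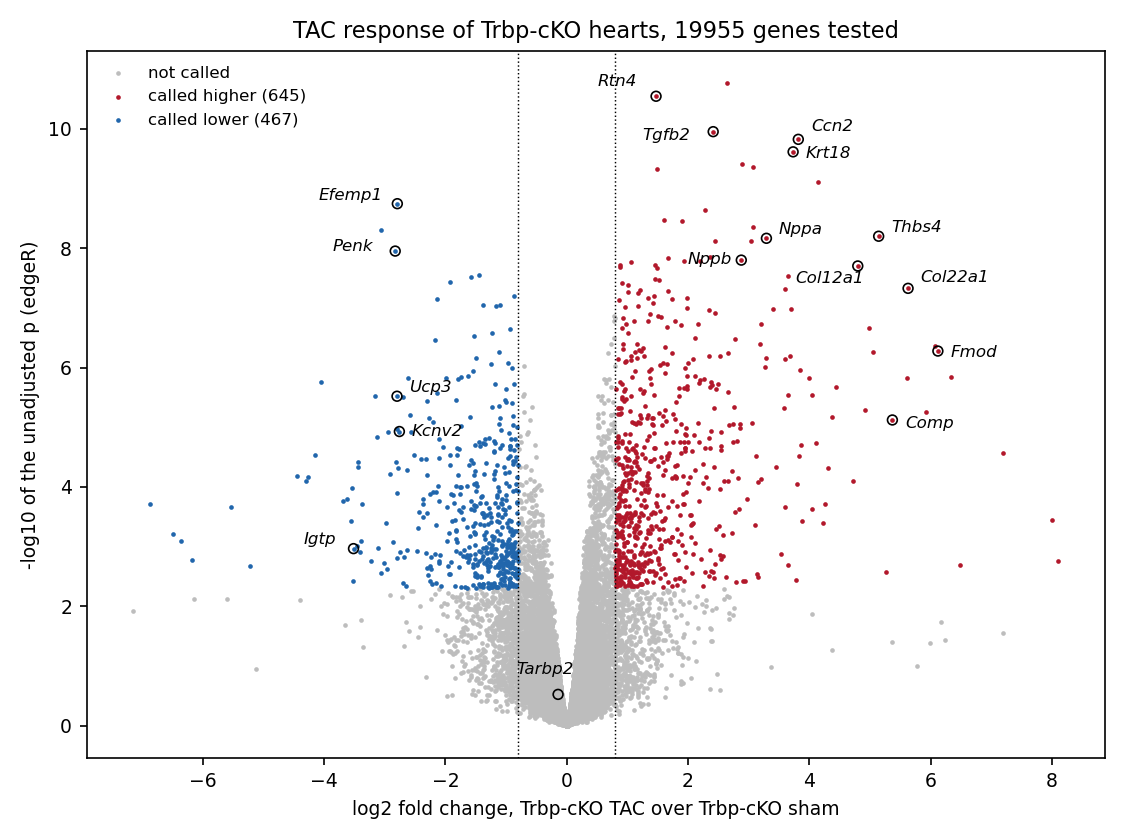
Each point is 1 of the 19955 tested genes. The x axis is the log2 fold change of Trbp-cKO TAC over Trbp-cKO sham hearts (4 hearts each) and the y axis the -log10 of the unadjusted p from edgeR. The 645 genes called higher are red and the 467 called lower are blue, dotted lines mark log2 fold changes of -0.8 and 0.8, and of the genes labeled Fmod and Col22a1 lie farthest to the right and Rtn4 highest.

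Most listed genes of the cardiac stress and fetal program rose. Of 19 listed genes, all of them tested, 11 were higher and 1 was lower, with a median log2 fold change of 1.33 against -0.00 over all genes. The share called was 63.2% against 5.57% of all genes. Nppa (ENSMUSG00000041616, chr4:148000722-148002079), which encodes atrial natriuretic peptide, a hormone released from stretched heart muscle, was at 1209, 1336, 1514 and 1007 CPM in the sham hearts and at 11757, 10253, 11949 and 15668 CPM in the TAC hearts. The groups were far apart, with all 4 TAC hearts at a similarly high level. The difference was 9.8-fold (log2 fold change 3.29 ± 0.29, adjusted p = 8.02e-06). Nppb (ENSMUSG00000029019, chr4:147985788-147987205), its neighbor on the same chromosome and the gene of brain natriuretic peptide, was at 186, 153, 282 and 137 CPM in the sham hearts and at 1408, 1392, 1418 and 1355 CPM in the TAC hearts. The TAC hearts lay within a narrow range, 7.35-fold above the sham hearts (log2 fold change 2.88 ± 0.27, adjusted p = 1.33e-05). Of the exonic bases of Nppa 61.5% also lie in the annotated gene Gm13054, and the counting is not stated to use strand, so reads of the 2 genes may not be separable.

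The sequences around the annotated starts of the most strongly raised stress genes were read from RefSeq (GRCm38.p6), which held an entry for Nppa, Nppb, Xirp2, Rcan1 and Fhl1. Each runs from 250 bases before to 50 bases after the start on the plus strand of the gene, and capitals mark TATAAA of the TATA box, CATTCC of the MCAT element, AGATAA of the GATA element and the CArG motif by its consensus, searched on both strands. The 3 shown are those in which a motif was found.
Nppa chr4:148000472-148000771: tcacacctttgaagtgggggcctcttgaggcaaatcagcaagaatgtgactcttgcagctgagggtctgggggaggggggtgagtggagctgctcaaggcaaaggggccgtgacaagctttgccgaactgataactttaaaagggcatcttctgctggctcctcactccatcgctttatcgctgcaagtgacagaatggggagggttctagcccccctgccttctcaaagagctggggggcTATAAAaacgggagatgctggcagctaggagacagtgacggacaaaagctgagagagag
Nppb chr4:147985650-147985949: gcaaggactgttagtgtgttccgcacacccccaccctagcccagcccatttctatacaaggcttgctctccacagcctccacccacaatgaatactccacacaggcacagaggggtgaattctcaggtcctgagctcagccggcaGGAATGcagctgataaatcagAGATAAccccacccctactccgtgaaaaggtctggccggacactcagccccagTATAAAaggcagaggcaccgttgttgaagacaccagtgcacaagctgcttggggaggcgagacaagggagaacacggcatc
Fhl1 chrX:56779433-56779732: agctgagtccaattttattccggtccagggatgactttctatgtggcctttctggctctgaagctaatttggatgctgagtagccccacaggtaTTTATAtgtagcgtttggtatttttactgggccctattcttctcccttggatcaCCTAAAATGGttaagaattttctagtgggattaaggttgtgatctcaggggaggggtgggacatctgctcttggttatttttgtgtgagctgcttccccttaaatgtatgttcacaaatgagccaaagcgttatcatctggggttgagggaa
In the Nppb window the GATA, the TATA and the MCAT letters all occurred, while Nppa had TATA alone and the first entry of Fhl1 had TATA and CArG. Over 32851 RefSeq windows of the same length MCAT was found in 14.7%, TATA in 13.6%, GATA in 11.2% and CArG in 1.63%. The windows of Xirp2, of both Rcan1 entries and of the second Fhl1 entry held none of these letters.

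Other called genes of the list included Xirp2, Xirp1, Fhl1, Rcan1 and Ankrd1. Xirp2 (ENSMUSG00000027022, chr2:67446002-67526614), which encodes an actin-binding protein of the intercalated disc, was at 333, 486, 321 and 427 CPM in the sham hearts and at 2522, 3071, 1719 and 1251 CPM in the TAC hearts. It rose 5.46-fold (log2 fold change 2.45 ± 0.27, adjusted p = 3.79e-05), and TAC hearts 1 and 2 were higher than TAC hearts 3 and 4. Xirp1, its relative, was at 95.5, 136, 95.8 and 115 CPM in the sham hearts and at 421, 508, 589.9 and 168 CPM in the TAC hearts and rose as well (log2 fold change 1.93 ± 0.32, adjusted p = 0.00108). Fhl1 (ENSMUSG00000023092, chrX:56731787-56793346), a LIM domain protein of the sarcomere known for its part in hypertrophy, was at 111, 173, 136 and 144 CPM in the sham hearts and at 747, 946, 404 and 259 CPM in the TAC hearts (log2 fold change 2.06 ± 0.35, adjusted p = 0.00131). TAC heart 4 was the lowest of its group for both genes and still above every sham heart. Rcan1 (ENSMUSG00000022951, chr16:92391953-92470867), an inhibitor of the phosphatase calcineurin that is itself switched on by calcineurin signaling, was at 71.7, 86.5, 67.3 and 73.3 CPM in the sham hearts and at 294, 350.0, 492 and 160.2 CPM in the TAC hearts (log2 fold change 2.12 ± 0.25, adjusted p = 7.54e-05). The groups did not overlap, although the level in TAC heart 3 was about 3 times that in TAC heart 4. Ankrd1, a titin-binding stress protein, was at 2813, 2588, 2466 and 2293 CPM in the sham hearts and at 6945, 6997, 6368 and 5299 CPM in the TAC hearts, a rise of 2.52-fold (log2 fold change 1.33 ± 0.14, adjusted p = 2.80e-05). Enah, which builds actin filaments, rose by a log2 fold change of 1.60 ± 0.13, and Myl4, the atrial light chain, rose by 1.32 ± 0.21 from a low level of 1.97 to 2.79 CPM in sham hearts. The 1 lower gene of the list was Ces1d, an esterase of lipid metabolism, at 121, 69.9, 52 and 75.6 CPM in the sham hearts and at 16.2, 12.5, 13.9 and 3.32 CPM in the TAC hearts (log2 fold change -2.80 ± 0.55, adjusted p = 0.00401).

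Not every gene of the fetal program passed. Acta1, the skeletal alpha-actin of the fetal heart, was at 1532, 2229, 2056 and 1513 CPM in the sham hearts and at 4535, 7779.9, 3139 and 689 CPM in the TAC hearts, so that TAC heart 4 fell below all sham hearts while the other TAC hearts lay above them (log2 fold change 1.14 ± 0.52, adjusted p = 0.198). Without TAC heart 4 the log2 fold change was 1.49 with an adjusted p of 0.025. Myh7, the slow myosin heavy chain, had a log2 fold change of 0.47 ± 0.16 (adjusted p = 0.084) and Myh6, the adult fast form, one of -0.25 ± 0.31 (adjusted p = 0.714). The 2 genes share part of their sequence, and neither call was made. Of 8 atrial markers 6 were tested, 4 were higher and 1 lower. Their summed level was 11261 to 16472 CPM in TAC and 1496 to 1898 CPM in sham hearts, most of it Nppa. Myl7, the defining atrial light chain, was at 0.159, 0.0713, 0.0732 and 0 CPM in the sham hearts and at 0.479, 0.311, 0.293 and 0.476 CPM in the TAC hearts (log2 fold change 2.40 ± 0.84, adjusted p = 0.0863), near absence in every heart.

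**Figure D2:**
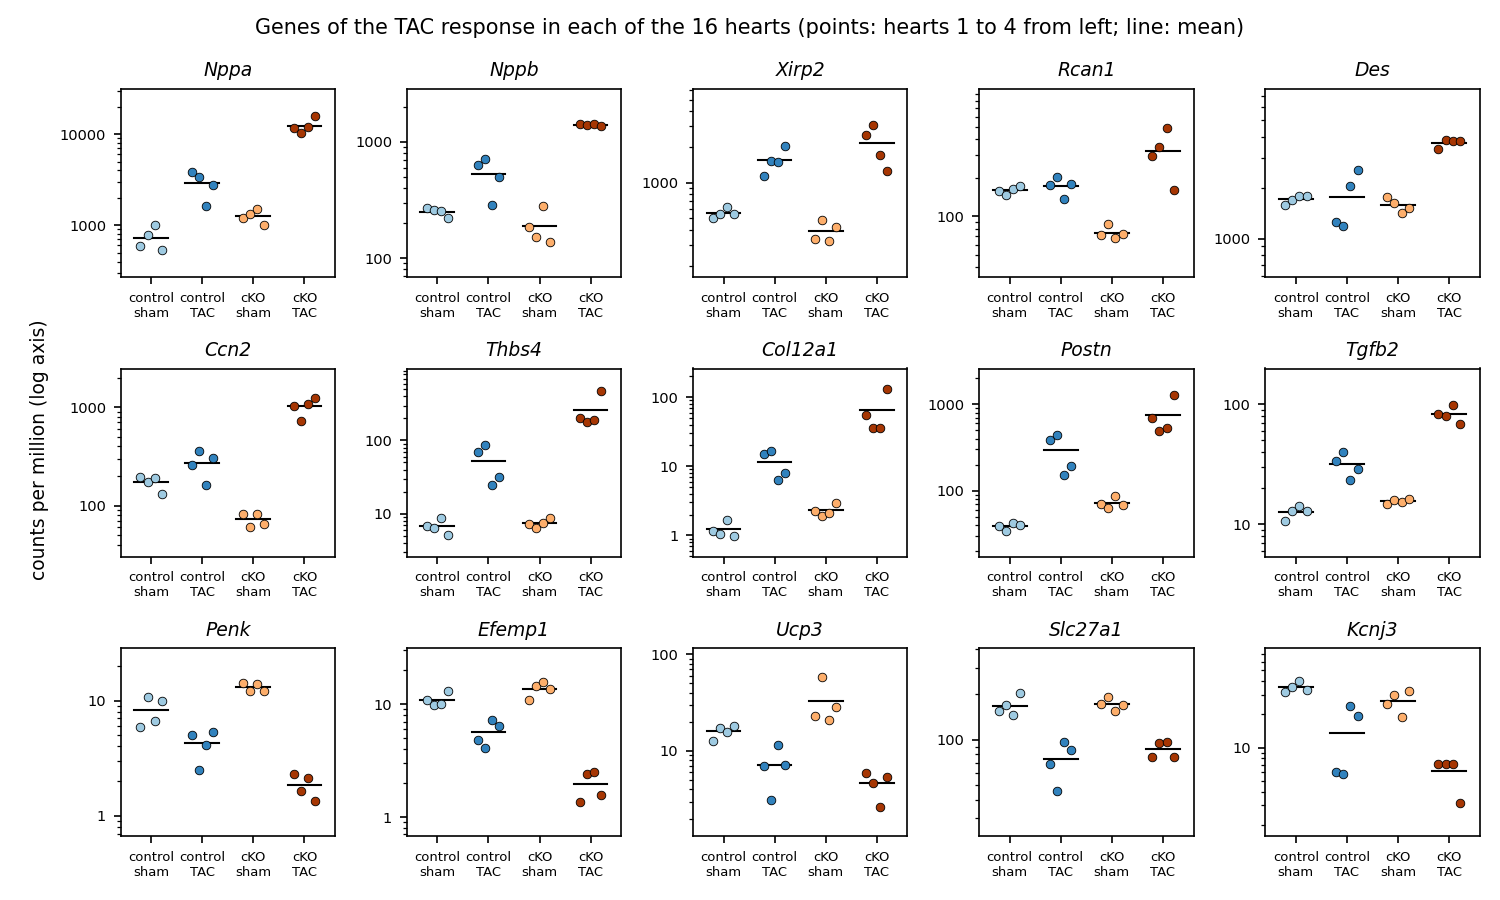
Each panel shows 1 gene, with CPM on a log axis for the 4 hearts of each group (points, hearts 1 to 4 from the left) and a line at the group mean. In Trbp-cKO hearts every TAC heart lies above every sham heart for Nppa, Nppb and Ccn2 and below for Penk, Efemp1 and Kcnj3.

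Most listed genes of the cytoskeleton and the Z-disc, of the contractile apparatus and of calcium cycling were not called. Among 29 cytoskeleton and Z-disc stress genes 7 were higher and none lower (median log2 fold change 0.55). Their share called was 24.1% against 5.57% of all genes. Des, the intermediate filament desmin that ties Z-discs together, was at 1755, 1619, 1413 and 1510.4 CPM in the sham hearts and at 3403, 3838, 3786 and 3786 CPM in the TAC hearts (log2 fold change 1.23 ± 0.21, adjusted p = 0.00145). Every TAC heart was above every sham heart, and TAC heart 1 was the lowest of its group. Synpo2l, an actin-binding protein of the Z-disc, rose by 1.98 ± 0.21 and Lmcd1, a LIM protein linked to calcineurin signaling, by 1.33 ± 0.15. Krt18, an epithelial-type keratin, was among the 12 largest rises at 2.16, 1.68, 1.73 and 1.36 CPM in the sham hearts and at 33, 21.1, 19.1 and 18.8 CPM in the TAC hearts (log2 fold change 3.73 ± 0.26, adjusted p = 9.71e-07), and TAC heart 1 was the highest. Rtn4, a membrane protein that shapes the endoplasmic reticulum, had the smallest adjusted p among genes with a regular symbol. It was at 92.4, 90.8, 89.3 and 95 CPM in the sham hearts and at 242, 249, 256 and 273 CPM in the TAC hearts (log2 fold change 1.47 ± 0.09, adjusted p = 2.84e-07), with almost no spread within a group. Of its exonic bases 18.4% are shared with the annotated gene Eml6.

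Among 26 sarcomere genes 2 were higher and 2 lower (median 0.14), a share called of 15.4% against 5.57% of all genes. Myl9 and Tpm2 rose, and Tcap and Myh7b fell, with log2 fold changes of 1.20 ± 0.26, 1.02 ± 0.19, -0.85 ± 0.22 and -0.98 ± 0.27. The call of Tcap was lost without sham heart 1, TAC heart 1 or TAC heart 3 (-0.82, -0.80 and -0.76), and that of Myh7b without any 1 of 5 hearts (-0.96 to -0.82). Myl9 and Tpm2 are also expressed in smooth muscle, whose marker list with that of pericytes had 3 of 12 genes called higher, a median of -0.06 and a summed level of 1353 to 1809 CPM in TAC and 1736 to 1931 CPM in sham hearts, and the part of these cells was not tested. None of 19 calcium handling genes was called by edgeR or DESeq2, against 5.57% of all genes, and 3 were lower at an unadjusted p under 0.05, which 23% of all genes had in either direction. Atp2a2, the calcium pump of the sarcoplasmic reticulum, was at 6435, 8011, 3701 and 7471 CPM in the sham hearts and at 6190.3, 6044, 5855 and 1680.2 CPM in the TAC hearts (log2 fold change -0.37 ± 0.47, adjusted p = 0.717). TAC heart 4 was the lowest, and the other TAC hearts lay within the range of the sham hearts. Ryr2, the calcium release channel, was at 777, 1143, 556 and 1095 CPM in the sham hearts and at 811, 749.7, 721 and 413 CPM in the TAC hearts (log2 fold change -0.41 ± 0.40, adjusted p = 0.617). Its groups overlapped.

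Some potassium channel genes fell. Of 27 ion channel and connexin genes 4 were lower, none was higher, and the median was -0.43, a share called of 14.8%. Kcnv2, a silent subunit that modifies voltage-gated channels, was at 5.66, 5.46, 5.36 and 5.15 CPM in the sham hearts and at 1.1, 0.919, 0.836 and 0.349 CPM in the TAC hearts (log2 fold change -2.76 ± 0.43, adjusted p = 8.26e-04). Kcnj3, a subunit of the acetylcholine-gated channel, was at 24.9, 29.9, 19 and 32.7 CPM in the sham hearts and at 7.04, 7.07, 7.05 and 3.16 CPM in the TAC hearts (log2 fold change -2.13 ± 0.41, adjusted p = 0.00335), and 3 TAC hearts had nearly the same level with TAC heart 4 below them. Kcnj2, the channel that sets the resting potential, was at 24.1, 30.7, 20.3 and 26.2 CPM in the sham hearts and at 9.11, 10.9, 16.3 and 7.85 CPM in the TAC hearts (log2 fold change -1.20 ± 0.20, adjusted p = 0.00135). In none of the 3 genes did the groups overlap. The other lower gene was Scn4a, a sodium channel (-1.75 ± 0.53), whose call was lost on leaving out any 1 of 7 hearts and whose log2 fold change then ran from -1.96 to -1.40.

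Most genes of fuel oxidation had log2 fold changes below 0, and most of them were not called. Of 36 genes of fatty acid uptake and oxidation 8 were lower and none was higher, a share called of 22.2% against 5.57% of all genes. Of these 36 genes, 33 had a log2 fold change below 0, with a median of -0.70. Over all tested genes 10027 of 19955 were below 0. Ucp3, an uncoupling protein of the mitochondrial inner membrane that follows fatty acid use, was at 23, 58, 20.8 and 28.5 CPM in the sham hearts and at 5.98, 4.7, 2.64 and 5.43 CPM in the TAC hearts (log2 fold change -2.80 ± 0.39, adjusted p = 3.15e-04). Acaa2, the thiolase of the last step of beta-oxidation, was at 663, 602, 513 and 556 CPM in the sham hearts and at 219.6, 263, 221 and 115 CPM in the TAC hearts (log2 fold change -1.51 ± 0.37, adjusted p = 0.0169), and Slc27a1, a fatty acid transporter, at 172, 193, 156 and 170.3 CPM in the sham hearts and at 76.6, 95, 97.1 and 77 CPM in the TAC hearts (log2 fold change -1.0 ± 0.19, adjusted p = 0.00315). All TAC hearts were below all sham hearts in these genes. Hadha and Acadm, enzymes of earlier steps, were not called. Hadha was at 1100.2, 1215, 726 and 1104 CPM in the sham hearts and at 700.3, 759, 672 and 289 CPM in the TAC hearts (log2 fold change -0.78 ± 0.44, adjusted p = 0.319), and Acadm had a log2 fold change of -0.70 ± 0.43 (adjusted p = 0.367). In both, the level in TAC heart 4 was the lowest of the 8 hearts. Without TAC heart 4 and sham heart 1, 3 genes of the list were called lower, and without TAC hearts 3 and 4 there were 4.

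None of the 20 genes of pyruvate oxidation and the citric acid cycle was called by edgeR or DESeq2, 3 were lower at an unadjusted p under 0.05, and all 20 were below 0 (median -0.45). Of 18 genes of branched-chain amino acid breakdown 2 were lower, Bckdhb of the branched-chain dehydrogenase (-0.89 ± 0.27) and its activating phosphatase Ppm1k (-1.19 ± 0.28), and the median was -0.56, a share called of 11.1%. Neither was called without TAC heart 4 and sham heart 1, and Bckdhb lost its call on leaving out any 1 of the 8 hearts (-0.96 to -0.78). The 76 nuclear genes of the respiratory chain and ATP synthase were all below 0, with a median of -0.45. That median was -0.30 without TAC hearts 3 and 4, -0.27 without TAC heart 4 and sham heart 1 and -0.22 with the clock score as a covariate, and of the 76 genes 76, 75 and 72 were then below 0. Of the 20 genes of pyruvate oxidation and the citric acid cycle 18, 18 and 11 were below 0 in these 3 fits. Only Cox7a1, the heart and muscle form of a cytochrome oxidase subunit, passed both thresholds, while 18 passed the adjusted p alone, against 3.92% of all genes. Cox7a1 was at 401, 332, 363 and 307 CPM in the sham hearts and at 191, 249, 196 and 126 CPM in the TAC hearts (log2 fold change -0.88 ± 0.17, adjusted p = 0.00378), and without TAC heart 4 its log2 fold change of -0.73 no longer reached the fold threshold. The 13 protein genes of the mitochondrial chromosome had a median of -0.27, and none was called by edgeR or DESeq2, with 3 lower at an unadjusted p under 0.05. The share of counts from that chromosome was 25.1%, 22.7%, 25.7% and 23.5% in sham and 18.2%, 20.3%, 19.0% and 24.9% in TAC hearts, a difference of -3.62 percentage points (exact permutation test, two-sided, p = 0.0857, n = 4 and 4). Without TAC heart 4 it was -5.06 points, with an exact permutation p of 0.029, which is the smallest these numbers of hearts can give. Of 12 cardiomyocyte markers none was called by edgeR and 1 was lower by DESeq2, 4 were lower at an unadjusted p under 0.05, and their median was -0.33. Their summed levels overlapped, at 38066 to 65955 CPM in TAC and 56735 to 68083 CPM in sham hearts (two-sided exact permutation p = 0.257, n = 4 and 4). The part of the cardiomyocyte share in the lower metabolic genes was not tested.

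In glucose use 3 of 25 genes were higher and 1 lower (median 0.02), a share called of 16%. Slc2a1, the glucose transporter of the fetal heart, was at 21.9, 19.7, 15 and 17 CPM in the sham hearts and at 34.6, 31, 40.6 and 36.3 CPM in the TAC hearts (log2 fold change 0.95 ± 0.13, adjusted p = 2.64e-04). Slc16a3, which exports lactate, rose by 1.85 ± 0.25, and Pfkp, the platelet form of phosphofructokinase, by 1.06 ± 0.13. No TAC heart overlapped a sham heart in the 3 genes. The lower gene of the list was Pfkfb1, which sets the level of a regulator of phosphofructokinase, at 14.8, 22.1, 21.8 and 20.6 CPM in the sham hearts and at 2.93, 3.99, 2.77 and 1.72 CPM in the TAC hearts (log2 fold change -2.80 ± 0.44, adjusted p = 7.55e-04). Fbp2, the muscle fructose bisphosphatase, lies outside the list and was at 17.3, 18.1, 11.8 and 12.2 CPM in the sham hearts and at 1.52, 3.27, 2.16 and 0.874 CPM in the TAC hearts (log2 fold change -2.92 ± 0.53, adjusted p = 0.00243). Both genes were among the 12 largest falls.

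**Figure D3:**
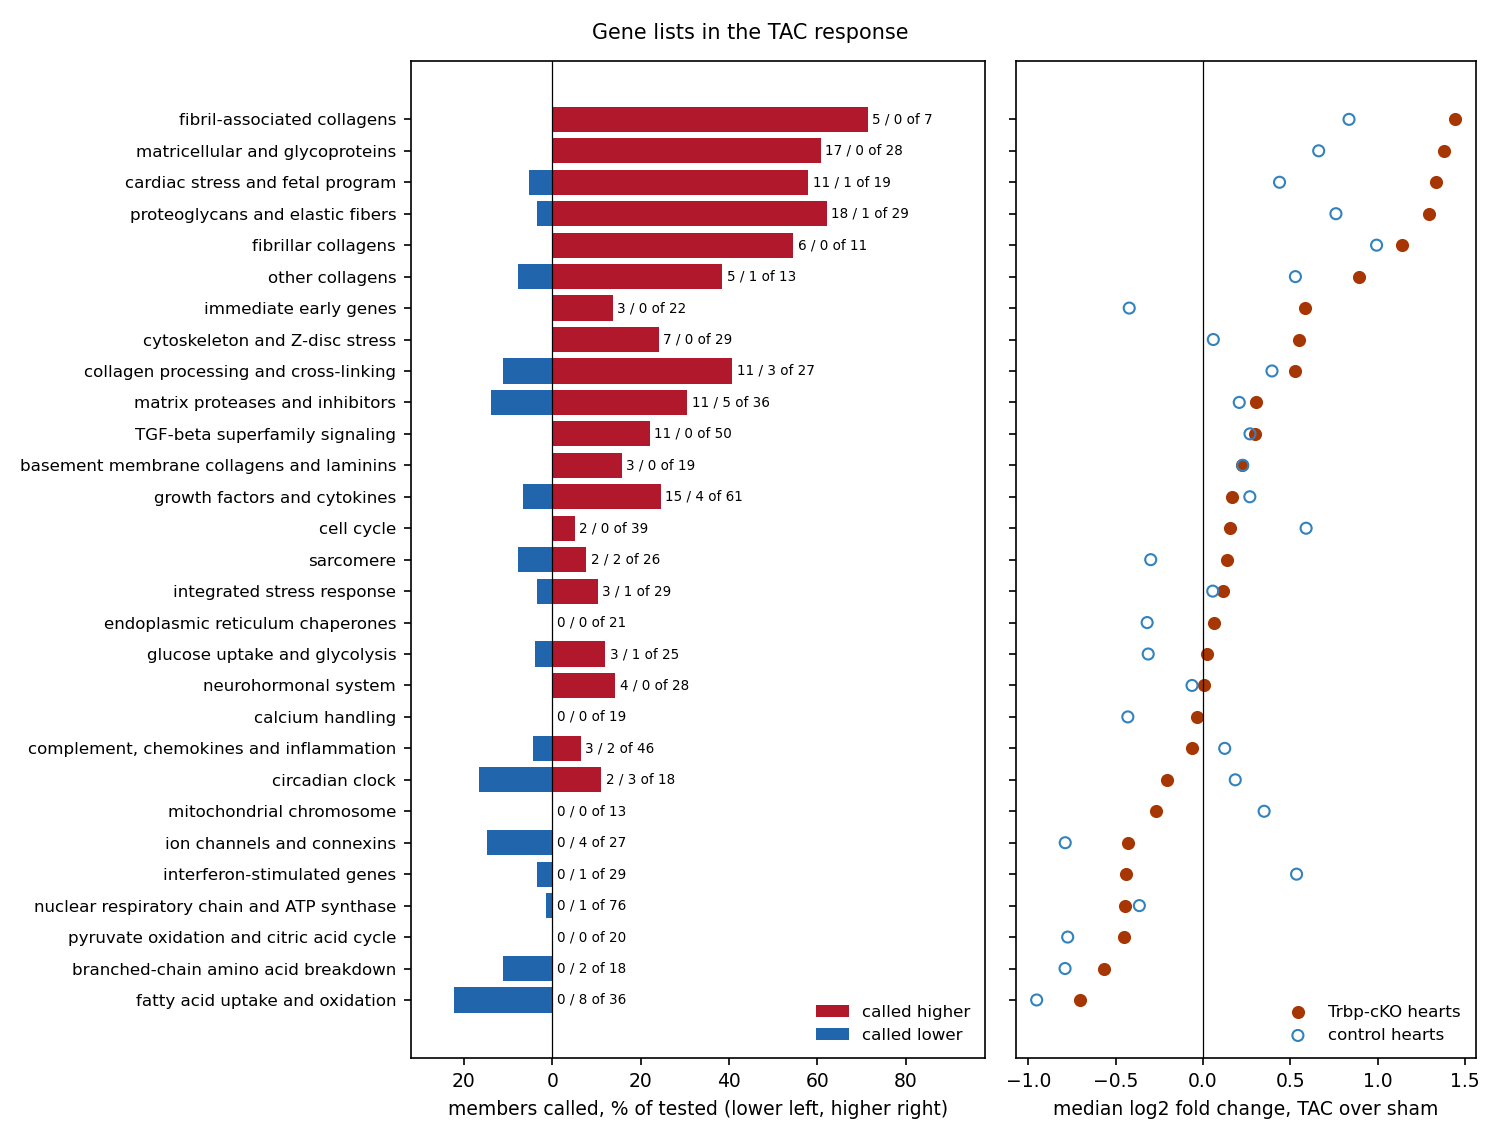
Each row is a gene list. Bars on the left give the percent of tested members called higher (red) or lower (blue) in Trbp-cKO TAC against sham hearts, with the counts beside them, and points on the right give the list's median log2 fold change in Trbp-cKO (filled) and control hearts (open). The fibrillar, fibril-associated and other collagens, the matricellular genes and the cardiac stress genes lie near the top with medians above 0.8, and fatty acid oxidation lies at the bottom.

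Matrix genes made up most of the largest rises among genes that met the level, symbol and overlap conditions of the naming rule. Fmod, Col22a1, Comp, Thbs4, Col12a1, Ccn2 and Ltbp2 were 7 of the 12 largest rises by rule, and among activated fibroblast markers 10 of 12 were higher, with a median of 2.84 and a summed level of 1561 to 3626 CPM in TAC against 549.97 to 793 CPM in sham hearts. Of the activated fibroblast markers Postn, Col8a1, Cilp, Comp, Thbs4 and Lox are themselves matrix genes described below. Resting fibroblast markers gave 3 of 12 higher and a median of -0.07. Markers of cartilage and bone matrix, of which 9 of 12 were tested, gave 7 higher, and several of them are matrix genes described here. Shares called in the matrix gene lists below ran from 15.8% (basement membrane) to 71.4% (fibril-associated collagens), against 5.57% of all genes. The part of fibroblast number in the matrix genes was not tested.

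Among 11 fibrillar collagens 6 were higher and none lower (median 1.14). Col1a1 (ENSMUSG00000001506, chr11:94936224-94953042), which with Col1a2 forms the main collagen of scar, was at 97, 103, 139 and 108 CPM in the sham hearts and at 316, 307, 338 and 533 CPM in the TAC hearts (log2 fold change 1.74 ± 0.21, adjusted p = 1.10e-04). Col3a1, a collagen of thin fibrils, was at 212, 216, 237 and 233 CPM in the sham hearts and at 524, 361, 509 and 583 CPM in the TAC hearts (log2 fold change 1.14 ± 0.17, adjusted p = 6.60e-04). The TAC hearts were above the sham hearts in both, and TAC heart 4 was highest. Col1a2 rose by 1.43 ± 0.20. Col11a1, a collagen of cartilage that starts new fibrils, went from 0.136, 0.171, 0.234 and 0.114 CPM in sham to 6.56, 5.31, 4.3 and 6.07 CPM in TAC hearts (log2 fold change 5.05 ± 0.61, adjusted p = 1.08e-04), a rise from near absence to a low level.

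The fibril-associated collagens, which sit on the surface of fibrils, gave 5 of 7 tested genes higher (median 1.44). Col22a1 (ENSMUSG00000079022, chr15:71795795-72034227), known from the junctions of muscle with tendon, was at 0.50, 0.271, 0.278 and 0.601 CPM in the sham hearts and at 10.5, 14.2, 9.8 and 46.2 CPM in the TAC hearts (log2 fold change 5.63 ± 0.57, adjusted p = 2.32e-05). Col12a1, found in tissue under strain, was at 2.27, 1.88, 2.09 and 2.99 CPM in the sham hearts and at 54.7, 36.4, 35.8 and 130.1 CPM in the TAC hearts (log2 fold change 4.80 ± 0.45, adjusted p = 1.36e-05). In both genes 3 TAC hearts lay together and TAC heart 4 lay several times above them. Without TAC heart 4 the log2 fold changes were 4.81 and 4.20. Of 13 other collagens 5 were higher and 1 was lower. Col8a1, a short-chain collagen of remodeling vessels and scars, was at 27.2, 36, 39.1 and 31.1 CPM in the sham hearts and at 168, 141, 115 and 222 CPM in the TAC hearts (log2 fold change 2.28 ± 0.18, adjusted p = 4.18e-06), and the exception, Col6a6, was at 9.09, 11.6, 9.3 and 10.2 CPM in the sham hearts and at 1.18, 2.43, 2.14 and 0.381 CPM in the TAC hearts (log2 fold change -2.70 ± 0.38, adjusted p = 3.19e-04). Of 19 basement membrane collagens and laminins 3 were higher, with a median of 0.23, among them Col4a3 (1.05 ± 0.23).

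Small proteoglycans and elastic fiber genes, which space collagen fibrils and build microfibrils, gave 18 of 29 higher and 1 lower (median 1.30). Fmod (ENSMUSG00000041559, chr1:134037254-134048277), fibromodulin, which binds collagen fibrils and guides their cross-linking, had the largest rise named by the rule. It was at 1.75, 0.827, 1.08 and 1.8 CPM in the sham hearts and at 56.3, 55.9, 47.4 and 217 CPM in the TAC hearts (log2 fold change 6.12 ± 0.74, adjusted p = 1.07e-04), and without TAC heart 4 the log2 fold change was 5.30. TAC hearts 1 to 3 were close to each other and TAC heart 4 was well above them. Ltbp2, a microfibril protein, was at 21.1, 13.9, 19.8 and 10.5 CPM in the sham hearts and at 219, 125, 167 and 333 CPM in the TAC hearts (log2 fold change 3.69 ± 0.40, adjusted p = 3.47e-05). Bgn, biglycan, was at 231, 235, 308 and 219.6 CPM in the sham hearts and at 745, 585, 769 and 1378 CPM in the TAC hearts (log2 fold change 1.81 ± 0.26, adjusted p = 3.66e-04), and Eln, elastin, at 22.2, 17.3, 30.3 and 20.8 CPM in the sham hearts and at 71.6, 47.5, 99.7 and 212 CPM in the TAC hearts (log2 fold change 2.25 ± 0.43, adjusted p = 0.00315). All sham hearts lay below all TAC hearts in these 3 genes. Without TAC heart 4 and sham heart 1, 11 genes of the list were higher.

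Of 28 matricellular genes and glycoproteins, which signal between matrix and cells, 17 were higher and none lower (median 1.38). Ccn2 (ENSMUSG00000019997, chr10:24595442-24598683), connective tissue growth factor, was at 81.5, 60.6, 81.7 and 65.4 CPM in the sham hearts and at 1032, 721, 1088 and 1239 CPM in the TAC hearts. All TAC hearts were far above all sham hearts, and the fitted difference was 14.1-fold (log2 fold change 3.82 ± 0.25, adjusted p = 7.49e-07). Of its exonic bases 23.2% overlap the annotated gene Gm15270. Comp (ENSMUSG00000031849, chr8:70373558-70382066), a thrombospondin of cartilage and tendon, was at 10.4, 3.51, 4.19 and 3.78 CPM in the sham hearts and at 209, 70.5, 191 and 428 CPM in the TAC hearts (log2 fold change 5.37 ± 0.81, adjusted p = 6.07e-04), and Thbs4, its close relative known from the loaded heart, at 7.16, 6.32, 7.54 and 8.84 CPM in the sham hearts and at 205, 177, 191 and 482 CPM in the TAC hearts (log2 fold change 5.14 ± 0.45, adjusted p = 7.87e-06). Neither gene overlapped, and sham heart 1 was the highest sham heart for Comp. Postn, periostin of activated fibroblasts, was at 70, 62.8, 86.4 and 67.6 CPM in the sham hearts and at 699, 485, 539 and 1299 CPM in the TAC hearts (log2 fold change 3.40 ± 0.36, adjusted p = 3.47e-05). Cilp, a matrix protein that binds TGF-beta, was at 34.1, 21, 37.8 and 25.5 CPM in the sham hearts and at 338, 243, 282 and 621 CPM in the TAC hearts (log2 fold change 3.65 ± 0.35, adjusted p = 1.74e-05). Both rose in all 4 TAC hearts. Thbs1, which activates latent TGF-beta, was at 18.2, 10.2, 11.7 and 10.3 CPM in the sham hearts and at 55.6, 42.2, 53.7 and 166 CPM in the TAC hearts (log2 fold change 2.66 ± 0.50, adjusted p = 0.00299), and without TAC heart 4 its log2 fold change was 2.01.

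Collagen processing and cross-linking genes gave 11 of 27 higher and 3 lower (median 0.53). Lox, lysyl oxidase, the enzyme that cross-links collagen and elastin, was at 4.63, 3.49, 6.0 and 4.47 CPM in the sham hearts and at 38.8, 28, 31.4 and 125 CPM in the TAC hearts (log2 fold change 3.59 ± 0.52, adjusted p = 4.39e-04), and without TAC heart 4 the log2 fold change was 2.81. Loxl4 rose evenly by 1.38 ± 0.18. The 3 lower genes included Adamts3, a procollagen protease (-1.61 ± 0.28), and P3h4, a helper of collagen hydroxylation (-0.93 ± 0.16). Cnmd, chondromodulin, an antiangiogenic glycoprotein of cartilage and heart valves, was among the 3 falls of smallest adjusted p with a regular symbol, at 2.36, 2.6, 2.68 and 2.81 CPM in the sham hearts and at 0.399, 0.249, 0.205 and 0.397 CPM in the TAC hearts (log2 fold change -3.07 ± 0.26, adjusted p = 6.55e-06). Of 36 matrix proteases and inhibitors 11 were higher and 5 lower (median 0.30). Timp1, an inhibitor of metalloproteinases, was at 3.02, 1.77, 2.87 and 1.46 CPM in the sham hearts and at 18.5, 20.6, 17.3 and 22.9 CPM in the TAC hearts (log2 fold change 3.12 ± 0.54, adjusted p = 0.00152). Every TAC heart was above every sham heart. Adamts8 rose by 3.07 ± 0.26. Among the lower proteases Adamts7, which cleaves Comp, was at 18.5, 21.7, 15.6 and 20.9 CPM in the sham hearts and at 5.88, 7.29, 4.9 and 6.72 CPM in the TAC hearts (log2 fold change -1.63 ± 0.21, adjusted p = 1.98e-04), and Mmp13, a collagenase, fell by a log2 fold change of 1.88 from levels near 1 CPM.

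Of the TGF-beta family the ligands Tgfb2, Tgfb3 and Gdf15 rose, while Tgfb1 was not called. In the list of 50 genes 11 were higher and none was lower (median 0.30), where 5.57% of all genes were called. In control hearts 11 of the 50 were likewise higher and none lower, with a median of 0.27. Gdf10, a ligand of the superfamily outside that list, was lower (-1.81 ± 0.30). Tgfb2 (ENSMUSG00000039239, chr1:186622792-186705989), a ligand, was at 14.6, 16, 15.4 and 16.1 CPM in the sham hearts and at 83.6, 79.4, 99.8 and 68.3 CPM in the TAC hearts (log2 fold change 2.41 ± 0.16, adjusted p = 7.43e-07). Tgfb3 was at 21, 19.5, 27.1 and 19.6 CPM in the sham hearts and at 71.6, 73.9, 139.5 and 104 CPM in the TAC hearts (log2 fold change 2.16 ± 0.24, adjusted p = 4.89e-05). Tgfb1 was at 26.9, 26.6, 39.3 and 28.2 CPM in the sham hearts and at 39, 37.8, 38.3 and 67.2 CPM in the TAC hearts (log2 fold change 0.59 ± 0.26, adjusted p = 0.18). The groups were apart for Tgfb2 and Tgfb3 and overlapped for Tgfb1, in which sham heart 3 and TAC heart 4 were high. Gdf15, a stress-induced cytokine of the superfamily, was at 8.2, 5.18, 10.7 and 4.52 CPM in the sham hearts and at 132, 143, 209 and 137 CPM in the TAC hearts (log2 fold change 4.44 ± 0.60, adjusted p = 2.54e-04). Fstl3, which traps activin, rose by 1.98 ± 0.21, although 47.3% of its exonic bases overlap Prss57. The receptor Tgfbr1 was the only receptor of the family among those called (0.84 ± 0.16), and without TAC heart 4 its log2 fold change of 0.63 was under the fold threshold.

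Of 61 growth factors and cytokines 15 were higher and 4 lower (median 0.17), a share called of 31.1% against 5.57% of all genes. Hbegf, a ligand of the epidermal growth factor receptor, was at 18.1, 19.2, 14.2 and 15.7 CPM in the sham hearts and at 88.3, 103, 62.2 and 56.2 CPM in the TAC hearts (log2 fold change 2.20 ± 0.21, adjusted p = 1.33e-05). Angptl7, a secreted protein of the matrix, was at 7.47, 3.47, 6.13 and 3.96 CPM in the sham hearts and at 75.1, 37.3, 25.2 and 209 CPM in the TAC hearts (log2 fold change 4.05 ± 0.56, adjusted p = 3.12e-04), and without TAC heart 4 at a log2 fold change of 3.13. Angpt1, which stabilizes vessels through the receptor Tie2, fell to 3.19, 2.63, 4.97 and 4.54 CPM from 11.2, 12.2, 7.48 and 13.2 CPM (log2 fold change -1.52 ± 0.27, adjusted p = 0.00224). Penk, the precursor of enkephalins, was at 14.3, 12.2, 14 and 12.1 CPM in the sham hearts and at 2.29, 1.65, 2.11 and 1.33 CPM in the TAC hearts (log2 fold change -2.83 ± 0.26, adjusted p = 1.12e-05), one of the 3 falls of smallest adjusted p with a regular symbol. Among 28 neurohormonal genes 4 were higher and none lower (median 0.00), a share called of 14.3% against 5.57% of all genes. Npr3, the receptor that clears natriuretic peptides, was at 11.4, 15.2, 17 and 15.8 CPM in the sham hearts and at 45, 47.4, 40.1 and 19.9 CPM in the TAC hearts (log2 fold change 1.36 ± 0.25, adjusted p = 0.00273), and Ace, which makes angiotensin II, rose by 1.14 ± 0.19.

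Of 29 genes of the integrated stress response 3 were higher, Gdf15 among them, and 1 lower. This is a share called of 13.8% against 5.57% of all genes, and 7 were higher by the adjusted p alone. Atf3, a transcription factor of the response, was at 13.5, 12.5, 15.7 and 13.4 CPM in the sham hearts and at 32.2, 29.5, 55.7 and 27.4 CPM in the TAC hearts (log2 fold change 1.40 ± 0.32, adjusted p = 0.0108), with TAC heart 3 the highest. Nupr1 rose by 2.30 ± 0.42. Atf4 had a log2 fold change of 0.59 ± 0.13, below the fold threshold (adjusted p = 0.00972). None of 21 endoplasmic reticulum chaperones was called by edgeR or DESeq2, with 3 higher and 1 lower at an unadjusted p under 0.05 and a median of 0.07. Of 39 cell cycle genes 2 were higher and none lower, a share called of 5.13%, near the 5.57% of all genes. They were Ccnd2, a cyclin of the G1 phase (1.00 ± 0.12), and Tyms, which makes thymidylate (0.96 ± 0.25). The call of Tyms was lost without sham heart 1, 2 or 4 or TAC heart 4 (0.78 to 0.96). Cdkn1a, the p21 inhibitor of the cell cycle, was at 26.3, 19.4, 26.4 and 17.4 CPM in the sham hearts and at 55.3, 54.9, 50.4 and 148 CPM in the TAC hearts (log2 fold change 1.79 ± 0.32, adjusted p = 0.00195).

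Of 46 genes of complement, chemokines and inflammation 3 were higher and 2 lower, a share called of 10.9% against 5.57% of all genes (median -0.06). Lgals3, galectin-3, was at 4.84, 2.98, 3.98 and 3.51 CPM in the sham hearts and at 29.7, 11.2, 34.3 and 142 CPM in the TAC hearts (log2 fold change 3.83 ± 0.66, adjusted p = 0.00151), and without TAC heart 4 the log2 fold change was 2.72. Gpnmb, a glycoprotein of phagocytes, rose by 1.89 ± 0.32. Ccl11, eotaxin, was at 4.84, 3.79, 3.86 and 3.43 CPM in the sham hearts and at 0.199, 0.467, 0.279 and 0 CPM in the TAC hearts (log2 fold change -4.05 ± 0.54, adjusted p = 2.25e-04). The summed level of 12 macrophage markers was 277 to 346 CPM in TAC and 341 to 466 CPM in sham hearts, and of these markers Timd4, which marks resident macrophages, was lower (-2.57 ± 0.40). No lymphocyte marker of 11 was called by edgeR or DESeq2, and none had an unadjusted p under 0.05. Of 6 tested neutrophil markers edgeR called none, and 1 was higher by DESeq2 and at an unadjusted p under 0.05.

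Of 29 listed interferon-stimulated genes 1 was lower and none was higher, a share called of 3.45% against 5.57% of all genes. Outside that list 4 interferon-induced GTPase genes were called lower, Igtp and Iigp1 among the 12 largest falls and Irgm1 and Irgm2 picked after their values were seen, with sham heart 1 far above its group. Igtp, an interferon-induced GTPase that acts against intracellular parasites, was at 333, 14.7, 18.8 and 27.7 CPM in the sham hearts and at 7.06, 10.2, 7.13 and 9.91 CPM in the TAC hearts. Sham heart 1 was far above the other sham hearts, which themselves lay above the TAC hearts (log2 fold change -3.52 ± 0.88, adjusted p = 0.0184, and -1.25, adjusted p = 0.098 without sham heart 1). Iigp1, of the same family, was at 627, 46.7, 47.9 and 70.3 CPM in the sham hearts and at 17.1, 18.6, 15.9 and 24 CPM in the TAC hearts (log2 fold change -3.38 ± 0.81, adjusted p = 0.0149), with -1.54, adjusted p = 0.0652 without sham heart 1. Irgm2 and Irgm1 had log2 fold changes of -2.64 and -1.48, and of -1.20 and -0.67 without that heart, and without it none of the 4 genes was called. The calls of Igtp, Irgm1 and Irgm2 were also lost without TAC heart 1, with log2 fold changes of -3.44, -1.44 and -2.57, those of Igtp (-3.44) and Irgm1 (-1.46) without TAC heart 3, and that of Irgm1 (-1.49) without TAC heart 2.

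**Figure D4:**
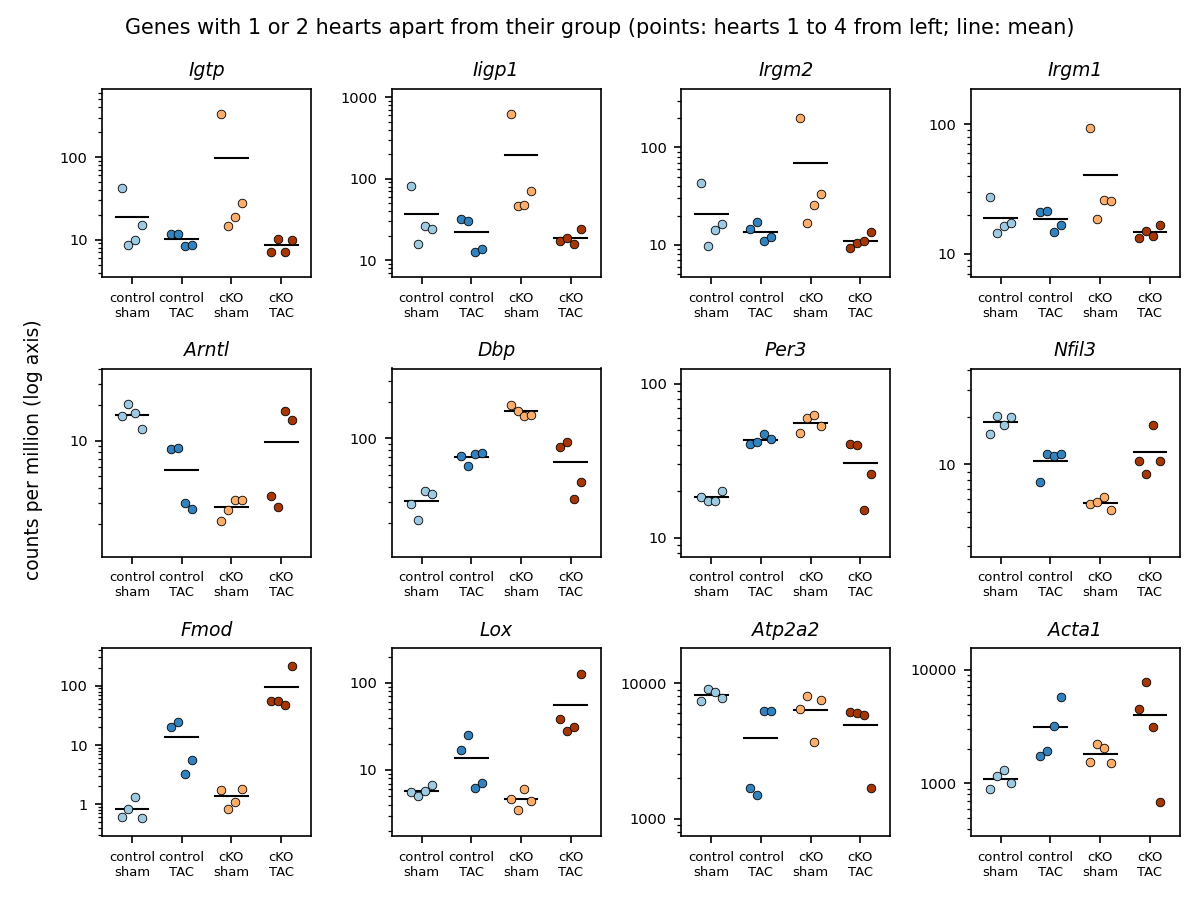
Each panel shows 1 gene, with CPM on a log axis for the 4 hearts of each group (points, hearts 1 to 4 from the left) and a line at the group mean. Trbp-cKO sham heart 1 stands above its group for Igtp (333 CPM), TAC hearts 3 and 4 stand above TAC hearts 1 and 2 for Arntl, and TAC heart 4 stands above its group for Fmod and below it for Atp2a2.

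Clock genes, whose transcripts cycle with the time of day, differed among the TAC hearts. Of 18 clock genes 2 were higher and 3 lower, a share called of 27.8% against 5.57% of all genes. Arntl, the core activator also called Bmal1, was at 2.11, 2.62, 3.16 and 3.18 CPM in the sham hearts and at 3.39, 2.79, 17.9 and 14.9 CPM in the TAC hearts (log2 fold change 1.81 ± 0.54, adjusted p = 0.046). Its high level was that of TAC hearts 3 and 4, and leaving out any 1 of 6 hearts removed the call (1.34 to 1.89). Dbp, an output gene of the opposite phase, was at 189.7, 169, 153 and 157 CPM in the sham hearts and at 85.6, 93.2, 31.8 and 43.9 CPM in the TAC hearts (log2 fold change -1.39 ± 0.28, adjusted p = 0.00432), Per3, a period gene, at 47.5, 60.1, 62.7 and 53.5 CPM in the sham hearts and at 40.6, 40, 15.1 and 25.9 CPM in the TAC hearts (log2 fold change -0.88 ± 0.22, adjusted p = 0.0198), and Nfil3, a repressor, rose by 1.07 ± 0.20. For Dbp and Per3 the lowest hearts were again TAC hearts 3 and 4, and the call of Per3 was lost without sham heart 2 or 3 or TAC heart 3 or 4 (-0.84 to -0.66). Without TAC hearts 3 and 4 the log2 fold changes of Arntl, Per3 and Nfil3 were 0.15, -0.47 and 0.76, none of them called, and Dbp kept its call. All 22 immediate early genes were above 0, with a median of 0.58, while 9928 of all 19955 tested genes were above 0. Of the 22 genes 3 were called higher, a share of 13.6% against 5.57% of all genes. Egr2 was at 2.54, 3.55, 1.79 and 1.74 CPM in the sham hearts and at 11.2, 11.5, 7.93 and 14 CPM in the TAC hearts (log2 fold change 2.21 ± 0.58, adjusted p = 0.0236), and its call was lost on leaving out any 1 of 4 hearts (2.08 to 2.23). The hour of collection is not given in the sources used here.

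Other large falls were in genes of varied function. Efemp1, fibulin-3 of the matrix, was at 10.9, 14.4, 15.7 and 13.7 CPM in the sham hearts and at 1.36, 2.43, 2.49 and 1.57 CPM in the TAC hearts. It had the smallest adjusted p of the lower genes with a regular symbol (log2 fold change -2.79 ± 0.22, adjusted p = 3.59e-06). All sham hearts were well above all TAC hearts. Inmt, a methyltransferase of small amines, was at 33, 12.9, 13.5 and 9.18 CPM in the sham hearts and at 0.638, 1.4, 1.26 and 4.49 CPM in the TAC hearts (log2 fold change -3.13 ± 0.50, adjusted p = 9.41e-04), and without TAC heart 4 at a log2 fold change of -3.94. It averaged 17.1 CPM in Trbp-cKO sham and 3.22 CPM in control sham hearts, a log2 fold change of 2.41 that was called. In Trbp-cKO TAC and control TAC hearts Inmt averaged 1.95 and 2.01 CPM. Pla2g4e, a phospholipase, was at 3.77, 5.11, 3.56 and 6.68 CPM in the sham hearts and at 0.518, 0.825, 0.939 and 0.111 CPM in the TAC hearts (log2 fold change -2.99 ± 0.66, adjusted p = 0.00919). The Trbp-cKO TAC and sham groups did not overlap in any of these genes.

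The control hearts of the series show what TAC did to mice of the same alleles without tamoxifen. There 498 genes were higher (2.5%) and 250 lower (1.25%). Control TAC hearts 1 and 2 stood apart from control TAC hearts 3 and 4 in the share of mitochondrial counts, at 38.2%, 38.8%, 25.2% and 21.7%. The 2 comparisons share no hearts, and across all tested genes the correlation of their log2 fold changes was 0.447 (Pearson, 19955 genes, which are not independent), or 0.510 over 12960 genes with a mean log2 CPM of at least 1. Called higher in both were 212 genes, 32.9% of the Trbp-cKO calls and 42.6% of the control calls, and called lower in both were 84, or 18.0% and 33.6%. Only 3 genes were higher in Trbp-cKO and lower in control hearts and 6 the reverse. Of the 645 higher genes 573 (88.8%) were above 0 in control hearts, and of the 467 lower genes 375 (80.3%) were below 0.

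Trbp-cKO and control mice differed by tamoxifen, by the active Cre and by the deletion, which cannot be told apart in what follows. The difference between the 2 responses was tested as an interaction, the Trbp-cKO log2 fold change minus the control one. It was above 0 in 89 genes (0.446%) and below 0 in 85 (0.426%). Of the genes raised by TAC in Trbp-cKO hearts 65 also had an interaction above 0, which is 10.1% of these genes and 73.0% of the 89, and of the lowered genes 48 had one below 0. These counts varied with the hearts used: leaving out 1 heart at a time gave 37 to 162 genes above 0 and 20 to 235 below 0, with both of the highest counts found without control TAC heart 4 and both of the lowest without control sham heart 3. With the clock score as a covariate there were 1, which was Stbd1, and 0, against 1503 and 1795 genes at an unadjusted p under 0.05 in that edgeR fit and 251 and 301 calls by DESeq2 without the score. The other 30 interactions of named genes were not called in that fit (adjusted p 0.149 to 0.514), but 26 of them kept their direction at 0.8 or more in size, among them Thbs1 at 3.83, Col22a1 at 3.49, Ccn2 at 2.54 and Akap5 at -2.84, and Arntl alone changed sign. Beside each called interaction given with its error below stands the number of the 26 alternative fits in which it was called.

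**Figure D5:**
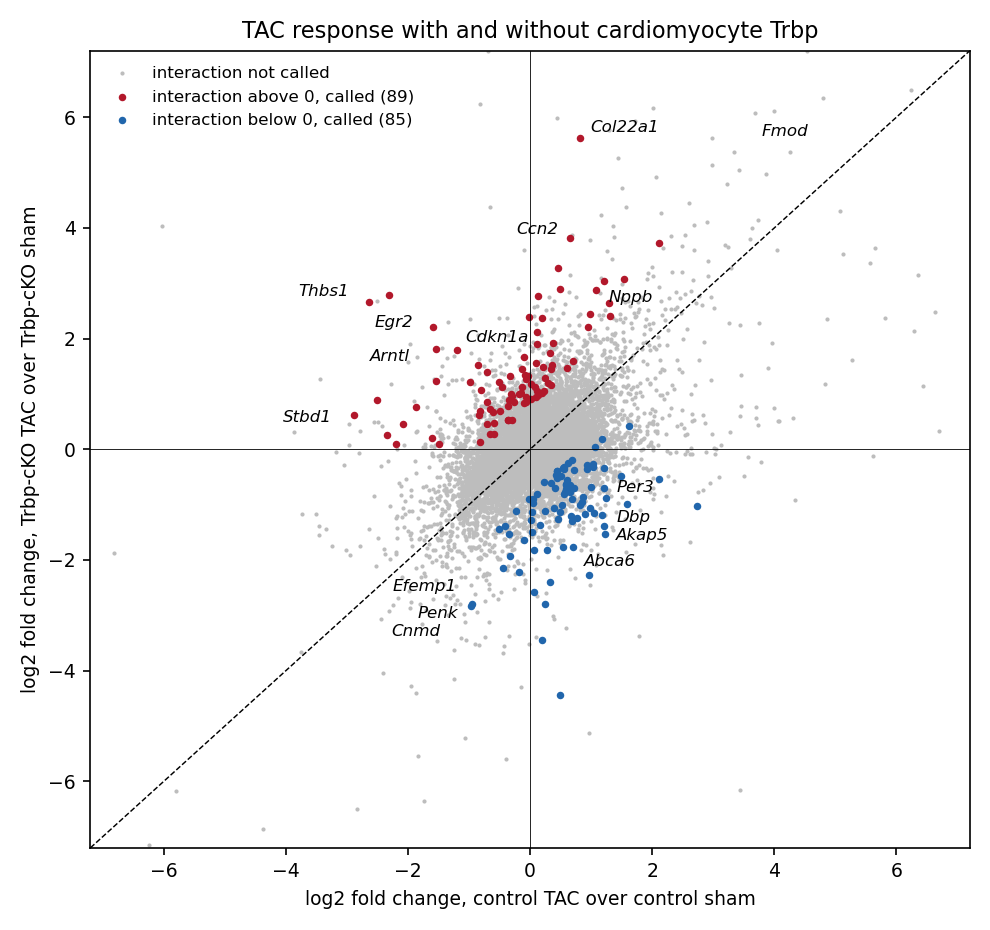
Each point is a tested gene, with the log2 fold change of control TAC over control sham hearts on the x axis and that of Trbp-cKO TAC over Trbp-cKO sham hearts on the y axis; genes called in the interaction are red (above 0) or blue (below 0), the dashed line marks equal responses and 4 genes lie outside the axes. Thbs1 lies below 0 on the control axis and above 0 on the Trbp-cKO axis.

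Among the stress genes Nppb, Rcan1, Myl4 and Enah responded more in Trbp-cKO hearts. Nppb had a log2 fold change of 1.09 in control hearts (interaction 1.79 ± 0.36, adjusted p = 0.030, 17 fits), and Rcan1 one of 0.11 (interaction 2.01 ± 0.34, adjusted p = 0.0122, 24 fits). Myl4 and Enah passed as well (interaction 1.64 ± 0.30, adjusted p = 0.0201, 21 fits for Myl4, and 0.89 ± 0.18, adjusted p = 0.0345, 11 fits for Enah). For Rcan1 the Trbp-cKO sham hearts were themselves below the control sham hearts, by a log2 fold change of -1.10. Nppa, with 2.00 in control hearts, did not pass (interaction 1.30 ± 0.37, adjusted p = 0.112). Of the cytoskeletal genes Lmcd1 had -0.03 in control hearts (interaction 1.37 ± 0.21, adjusted p = 0.00663, 25 fits), and Krt18 rose in control and Trbp-cKO hearts (interaction 1.62 ± 0.34, adjusted p = 0.0352, 16 fits). Rtn4 had 0.60 in control hearts, under the fold threshold (interaction 0.87 ± 0.12, adjusted p = 0.00464, 25 fits). Des, at 0.04 in control hearts, fell short (interaction 1.20 ± 0.29, adjusted p = 0.0608). The list medians in control and Trbp-cKO hearts were 0.44 and 1.33 for the stress genes, -0.95 and -0.70 for fatty acid oxidation, and -0.36 and -0.45 for the nuclear respiratory genes. No fatty acid oxidation gene was called in the interaction.

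Of the matrix genes Ccn2, Thbs1 and Col22a1 had interactions above 0. Ccn2 was at 194, 172, 192 and 131 CPM in control sham and at 257, 359.9, 163 and 308 CPM in control TAC hearts, a log2 fold change of 0.66, and the interaction was 3.16 ± 0.33, adjusted p = 6.04e-04, 25 fits. Here too the Trbp-cKO sham hearts started below the control sham hearts (-1.25). Thbs1 was at 243, 213, 262 and 55 CPM in control sham and at 28.2, 46.1, 19.5 and 30.1 CPM in control TAC hearts and thus fell in control hearts (-2.64), while it rose in Trbp-cKO hearts from a sham level that lay -3.94 on the log2 scale from the control sham level. Its interaction of 5.30 ± 0.71, adjusted p = 0.00273, 25 fits was the largest named by the rule, and Trbp-cKO TAC lay 1.36 from control TAC hearts. Col22a1 was not called in control hearts, at 1.37, 1.43, 0.989 and 1.45 CPM in control sham and at 2.6, 3.79, 1.36 and 1.53 CPM in control TAC hearts (0.82, interaction 4.81 ± 0.72, adjusted p = 0.00635, 25 fits), and its Trbp-cKO sham level lay -1.68 from the control sham level. Fmod, Col12a1, Postn and Cilp rose in control hearts as well, by log2 fold changes of 4.00, 3.23, 2.92 and 3.24, and their interactions were not called. The rise was uneven among control TAC hearts 1 to 4. Fmod was at 20.5, 24.7, 3.2 and 5.49 CPM in them and Col12a1 at 14.9, 16.7, 6.38 and 7.99 CPM. The ligands Tgfb2 (interaction 1.10 ± 0.21, adjusted p = 0.026, 19 fits) and Hbegf (1.26 ± 0.28, adjusted p = 0.0445, 11 fits) rose more in Trbp-cKO hearts. In the TGF-beta list 1 interaction, that of Tgfb2, was called above 0 and 1 was called below 0.

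The other largest interactions above 0 among genes that met the symbol and level conditions of the naming rule were in Egr2, Arntl and Stbd1, a protein that binds glycogen. Egr2 was at 5.35, 38.2, 8.35 and 4.09 CPM in control sham and at 3.0, 6.92, 3.96 and 4.65 CPM in control TAC hearts, with control sham heart 2 far above the others (interaction 3.81 ± 0.80, adjusted p = 0.0356, 12 fits). Over the 26 alternative fits the Egr2 interaction ran from 2.56 to 4.12. Arntl had -1.54 in control hearts (interaction 3.35 ± 0.76, adjusted p = 0.0475, 9 fits), and neither gene was called there. Stbd1 was not called in Trbp-cKO hearts (log2 fold change 0.61 ± 0.22, adjusted p = 0.0983) and fell in control hearts (-2.89, interaction 3.50 ± 0.33, adjusted p = 3.36e-04, 26 fits). The largest below 0 by rule were Akap5, a scaffold for protein kinase A, Dbp, Prnd, a relative of the prion protein, Abca6, a lipid transporter, and Per3. Akap5 was at 6.41, 8.57, 9.21 and 9.45 CPM in the sham hearts and at 2.87, 4.3, 2.67 and 1.83 CPM in the TAC hearts and rose in control hearts (1.23, interaction -2.76 ± 0.44, adjusted p = 0.00963, 25 fits). Abca6 was at 5.23, 13.5, 12.2 and 12 CPM in the sham hearts and at 3.81, 2.99, 2.38 and 3.43 CPM in the TAC hearts (interaction -2.47 ± 0.52, adjusted p = 0.0356, 11 fits). Prnd is uncertain, since 97.2% of its exonic bases overlap Prn. In Dbp and Per3 the control hearts moved in the opposite direction (1.20 and 1.24). The clock score was 0.485 to 1.37 in control sham and 2.16 to 2.97 in control TAC hearts. Sham levels differed too in some of these genes. Trbp-cKO sham lay from control sham hearts by called log2 fold changes of 1.42 (Akap5), 2.46 (Dbp), 1.61 (Per3), -2.54 (Egr2) and -2.57 (Arntl). The matching values after TAC were -1.34, -0.14, -0.51, 1.27 and 0.78, with only that of Akap5 called. Stbd1, Prnd and Abca6 had no called sham difference (0.12, 1.53 and 1.34). Their values after TAC were 3.62, -1.05 and -1.14, with only that of Stbd1 called. Penk and Efemp1 fell in control and Trbp-cKO hearts and more in the latter, with interactions of -1.87 ± 0.34, adjusted p = 0.0194, 22 fits and -1.84 ± 0.30, adjusted p = 0.00963, 25 fits.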

How the data were processed

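Ventricular RNA of 16 hearts, 1 library each, was selected for polyadenylated transcripts and sequenced as paired reads of 150 bases. Per the submitters' processing notes and methods, the authors trimmed reads with cutadapt 2.3, checked them with FastQC, aligned them to GRCm38 with HISAT2 2.1.0 and estimated coverage with StringTie 1.3.4. The authors deposited counts per gene, derived from that coverage and not normalized. The read length set in that step and the annotation release are not given in the sources used here. GENCODE M21 placed 55480 of the 55573 genes, and 18506 genes had no count.

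The counts were fitted with edgeR 4.0.16 in R 4.3.3: default filter on low counts, TMM scaling, 1 coefficient per group over all 16 hearts, robust quasi-likelihood test and Benjamini-Hochberg adjustment over 19955 genes. Errors are standard errors (SE) of the log2 fold change, n = 4 hearts per group. Genes were called where the adjusted p was 0.05 or less and the log2 fold change lay at or beyond 0.8 in size. Single values were compared by two-sided exact permutation tests over 70 splits, which cannot go below 0.029. CPM used TMM-adjusted library sizes. The steps were tested on simulated data. Promoters came from RefSeq (GRCm38.p6), and shared sequence was counted over exons and 75-base words.

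Named are Tarbp2, the 12 largest rises and 12 largest falls among calls whose groups did not overlap, with a regular symbol and an average level of 1 or more on the log2 CPM scale, list members by size and role, the 5 largest and 5 smallest interactions under the same symbol and level conditions, and the 3 genes of smallest adjusted p with a regular symbol per direction. Members, lists and rules were chosen with earlier results of these data known. Alternatives were library size scaling, other filters and fold thresholds, halved counts, no mitochondrial genes, the clock score or replicate number as a term, the 8 Trbp-cKO hearts alone, edgeR's exact test, DESeq2 1.42.0 and hearts left out. A few genes that met these rules are not reported here.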

Additional observations from a re-analysis of the deposited data

Results flagged for a closer look

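In 24 of 236 sets of 4 Trbp-cKO hearts that were examined (10.2%), 1 heart lay so far from the other 3 of its group that the gap to the nearest, as the share of the whole range given here, was above the 95% critical value of Dixon. Chance marks about 1 set in 20 (5.0%). The sets include genes picked after their values were seen, such as Irgm1, Irgm2 and Lepr, so the share of 10.2% is no test against that level. TAC heart 4 was the high heart for Tgfb1 (0.957), Cdkn1a (0.95), Fmod (0.947), Thbs4 (0.909), Col1a2 (0.903), Thbs1 (0.892), Lox (0.889), Col22a1 (0.88) and Col1a1 (0.862), 9 sets in all. It was the low heart for 4 genes, Kcnj3 (0.992), Atp2a2 (0.926), Enah (0.864) and Acadm (0.83). Sham heart 1 was the high heart for Igtp (0.959), Iigp1 (0.959), Irgm2 (0.908), Irgm1 (0.902) and Comp (0.901), and the low heart for Lepr (0.901). TAC heart 3 was high for Gdf15 (0.861) and Atf3 (0.831), TAC heart 1 high for Krt18 (0.835) and low for Des (0.88), and sham heart 3 high for Tgfb1 (0.876). Why these hearts stand apart was not tested.

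In 31 of the 115 named genes the response to TAC differed between Trbp-cKO and control hearts by edgeR's interaction test, given here as the Trbp-cKO log2 fold change minus the control one. Over all tested genes the share was 0.446% above and 0.426% below 0, and 10 of these genes were named for the size of their interaction, so their number is no measure of how common such differences are. The number after each value is that of the 26 alternative fits in which the gene was called. The interaction was above 0 in the stress and cytoskeletal genes Nppb (1.79, 17), Rcan1 (2.01, 24), Enah (0.89, 11), Myl4 (1.64, 21), Lmcd1 (1.37, 25) and Krt18 (1.62, 16). It was above 0 in the membrane protein gene Rtn4 (0.87, 25), the glucose transporter gene Slc2a1 (1.02, 22) and the tendon regulator Scx (1.77, 25). So it was in the matrix and ligand genes Col22a1 (4.81, 25), Ccn2 (3.16, 25), Thbs1 (5.30, 25), Tgfb2 (1.10, 19) and Hbegf (1.26, 11). The regulators Atf3 (2.10, 12), Egr2 (3.81, 12), Arntl (3.35, 9), Nfil3 (1.88, 25) and Cdkn1a (2.98, 25) and the glycogen-binding Stbd1 (3.50, 26) also lay above 0. Below 0 were Adamts7 (-1.52, 17), Dbp (-2.60, 25), Per3 (-2.12, 25), Penk (-1.87, 22), Efemp1 (-1.84, 25), Akap5 (-2.76, 25), Abca6 (-2.47, 11), Gdf10 (-2.09, 16), Timd4 (-2.64, 12), Gfra3 (-1.88, 7) and Prnd (-2.58, 12).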

How the results depend on the processing

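The counts of 645 higher and 467 lower genes stayed within 1.5 times under scaling by library size, other filters, halved counts, no mitochondrial genes, the 8 hearts alone, edgeR's exact test and DESeq2, which gave 556 to 760 higher and 386 to 636 lower genes. Leaving out 1 heart at a time gave 505 to 665 and 323 to 457. The clock score as a covariate gave 361 and 157, no fold threshold 1201 and 782, and leaving out TAC hearts 3 and 4, chosen after seeing the data, 460 and 238, a share of higher calls of 65.9%. That share was 58.0% in the reported calls and 69.7% with the clock score. A threshold of 1 on the log2 fold change gave 495 and 351, and leaving out TAC heart 4 and sham heart 1, also chosen after seeing the data, 477 and 326. The replicate number as a block gave 511 and 348. Same-numbered TAC and sham hearts had correlations of deviations of 0.04, 0.48, -0.16 and -0.14, and only number 2 correlated best with itself. These values cannot settle whether the numbers pair the hearts.

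Interaction counts of 89 above and 85 below 0 became 34 and 20 with the replicate block, 1 and 0 with the clock score and 251 and 301 in DESeq2. Those below 0 were 56 with library size only, 39 with no filter, 34 without TAC hearts 3 and 4 and 148 without TAC heart 4 and sham heart 1. With 1 heart left out the counts above 0 ran from 37 (control sham heart 3) to 162 (control TAC heart 4) and those below 0 from 20 to 235 (the same hearts). The count above 0 also moved by over 1.5 times without control sham heart 4 (51), control TAC heart 1 (52), Trbp-cKO sham hearts 2, 3 and 4 (51, 56 and 47) and TAC hearts 3 and 4 (59 and 134), and the count below 0 without any heart other than control TAC heart 3, Trbp-cKO sham heart 1 and Trbp-cKO TAC heart 4 (75, 88 and 111). The cause was not tested. Arntl reversed under the clock score, to -0.38 in Trbp-cKO hearts and -0.59 for its interaction, a score that includes this gene. Tarbp2 ran from -0.21 to -0.05 with 1 heart left out, and the mitochondrial share from -5.06 without TAC heart 4, now past the threshold, to -2.80 percentage points.

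Of 102 called genes named, 64 were called in every alternative fit at the fold threshold of 0.8. Other fold thresholds were not part of this tally. Calls lost were 36 with the clock score, 22 without TAC hearts 3 and 4, 15 without TAC heart 4 and sham heart 1 and 3 to 10 without 1 heart. Lost without TAC hearts 3 and 4 were Abca6, Acaa2, Akap5, Arntl, Atf3, Bckdhb, Cox7a1, Egr2, Igtp, Iigp1, Irgm1, Irgm2, Myh7b, Myl9, Nfil3, Per3, Pla2g4e, Ppm1k, Scn4a, Tcap, Tgfbr1 and Tyms. Those lost without TAC heart 4 and sham heart 1 were Acaa2, Arntl, Bckdhb, Cox7a1, Egr2, Igtp, Iigp1, Irgm1, Irgm2, Mmp13, Per3, Ppm1k, Scn4a, Tgfbr1 and Tyms. Those lost with the clock score were Myl4, Ces1d, Tcap, Myl9, Kcnj3, Scn4a, Slc27a1, Acaa2, Bckdhb, Ppm1k, Cox7a1, Col4a3, P3h4, Adamts3, Thbs1, Eln, Mmp13, Tgfbr1, Atf3, Nupr1, Tyms, Lgals3, Arntl, Per3, Dbp, Nfil3, Egr2, Igtp, Iigp1, Pla2g4e, Fbp2, Akap5, Abca6, Irgm1, Irgm2 and Cdkn1a. With the score 25 of these 36 kept their direction at a log2 fold change of 0.8 or more in size (Iigp1 -3.37, Mmp13 -2.18, Akap5 -1.57), and only Arntl changed sign. Arntl, Per3, Dbp and Nfil3 are themselves part of the score. Genes near 0 CPM in sham hearts, such as Myl7 and Col11a1, rest on few counts. With the mitochondrial chromosome removed its list gave no value, and under the filter of 1 CPM the adipocyte markers gave none.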

Other observations

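All genes named here were picked after their values had been seen. Scara5, a ferritin receptor, was at 33.6, 35.8, 34.2 and 35.8 CPM in the sham hearts and at 8.04, 4.77, 7.93 and 2.05 CPM in the TAC hearts (log2 fold change -2.61 ± 0.34, adjusted p = 2.04e-04, against -0.90 in control hearts). Lepr, the leptin receptor, was at 5.41, 10.2, 9.94 and 9.76 CPM in the sham hearts and at 2.11, 1.64, 2.68 and 1.43 CPM in the TAC hearts (log2 fold change -2.17 ± 0.25, adjusted p = 7.95e-05, against -0.83). Gdf10, a ligand of the TGF-beta superfamily, was at 5.43, 7.46, 6.7 and 6.38 CPM in the sham hearts and at 1.38, 2.74, 2.14 and 1.11 CPM in the TAC hearts (log2 fold change -1.81 ± 0.30, adjusted p = 0.00122, against 0.27). In none of the 3 genes did a TAC heart reach a sham heart. Scx, the transcription factor of tendon cells, moved the other way, at 7.18, 6.56, 7.96 and 6.16 CPM in the sham hearts and at 16.9, 21.2, 23.7 and 26.7 CPM in the TAC hearts (log2 fold change 1.67 ± 0.15, adjusted p = 1.32e-05), and in control hearts it was at 10.1, 7.69, 7.91 and 8.92 CPM in control sham and at 9.33, 9.14, 6.81 and 7.02 CPM in control TAC hearts (-0.10, interaction 1.77 ± 0.21, adjusted p = 0.00154, called in 25 of the 26 alternative fits). Tnmd, tenomodulin of tendon, was at 0, 0.0998, 0.146 and 0.13 CPM in the sham hearts and at 3.63, 7.27, 4.88 and 17.4 CPM in the TAC hearts (log2 fold change 6.34 ± 0.83, adjusted p = 2.04e-04, and 5.69 without TAC heart 4) and rose in control hearts as well (4.80).

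Timd4, a marker of long-lived resident macrophages, was at 3.07, 2.67, 2.34 and 2.62 CPM in the sham hearts and at 0.558, 0.716, 0.396 and 0.127 CPM in the TAC hearts (log2 fold change -2.57 ± 0.40, adjusted p = 8.27e-04) and at 1.21, 1.4, 1.3 and 1.36 CPM in control sham and at 0.964, 0.645, 2.1 and 1.79 CPM in control TAC hearts. It was the only called gene of the 12 macrophage markers, a share of 8.33% against 5.57% of all genes. Gfra3, a receptor found on Schwann cells, was at 3.0, 2.07, 3.88 and 2.16 CPM in the sham hearts and at 0.798, 0.576, 1.2 and 0.572 CPM in the TAC hearts (log2 fold change -1.81 ± 0.31, adjusted p = 0.0015), one of 2 lower genes among 7 Schwann cell markers. Both genes are low, at under 4 CPM in every Trbp-cKO heart.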
